A study of Mus musculus with 6 samples.

Results

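The 36 genes described here encode the enzymes that make cholesterol and fatty acids, the desaturases and elongases that modify fatty acids, and the proteins that control their transcription. They were named in a list selected on counts from control and knockout libraries of this study, so differences between the groups among them are given as a description and not as a test. All 36 were found among the 55414 gene identifiers of the count tables, and 35 of them passed the filter on low counts, which kept 13115 genes in all. The 36th, Fdps, had 3 counts over all 6 libraries together.

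The libraries were made from adult mouse pancreatic acinar cells, the cells of the exocrine pancreas that secrete digestive enzymes. A group of 3 controls had the genotype Pdx1Cre;Trip12+/+ and a group of 3 knockouts the genotype Pdx1Cre;Trip12fl/fl, with no treatment in either. Trip12 encodes an E3 ubiquitin ligase. Both groups carry the Cre recombinase, which the Pdx1 promoter drives in the epithelium of the developing pancreas, so that Cre can act in duct and islet lineages as well as in acinar cells. The labels call the 3 samples of a group biological replicates and do not say whether any were pooled or how the cells were isolated, and p-values therefore measure the spread between these samples.

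Cholesterol and fatty acids are both built from cytosolic acetyl-CoA. The sterol regulatory element-binding proteins, SREBPs, are transcription factors held in the membrane of the endoplasmic reticulum by Scap and the Insig proteins while sterols are plentiful. When sterols fall, Scap carries them to the Golgi, where they are cut and released to switch on the genes of both pathways. In acinar cells, membrane lipids are needed for the extensive endoplasmic reticulum and for secretory granules.

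Between 31019500 and 34041901 gene counts were assigned per library. Levels are given as CPM, counts per 1000000 gene counts, with library sizes scaled by TMM factors, which correct for the share of each library that a few very abundant genes take. A log2 fold change is knockout minus control. Calls are genes with a Benjamini-Hochberg adjusted p under 0.05 in the quasi-likelihood test of edgeR. In knockout the targeted gene, Trip12, kept 54.1% of its control mean, 14.0 CPM ± 0.917 (SD, n = 3) against 25.9 CPM ± 3.36. The 20 acinar marker genes summed to between 656132 and 878610 CPM in control and between 536690 and 564603 CPM in knockout. These sums are on scaled library sizes and are not shares of the gene counts of a library. The TMM factor was lower in every control than in every knockout, so the groups differed less in such shares than in these sums. Reads in the rows outside genes made up 43.5% to 45.7% of a control library and 36.9% to 41.1% of a knockout library, with no overlap, and their part in the differences below was not tested. By Xist and Y-linked counts, control 1 and all 3 knockouts were male and controls 2 and 3 female, so genotype and sex are partly confounded. Sums of 20 leukocyte markers ran from 31.1 to 242 CPM in control and from 32.3 to 159 CPM in knockout, highest in control 1 and knockout 1. Sums of 15 stromal and endothelial markers ran from 46.3 to 188 CPM and from 61.1 to 224 CPM, and were highest in the same libraries. In bulk RNA, fewer cells of a type and less RNA per cell cannot be told apart.

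The desaturases insert double bonds into fatty acyl chains. Fads1 is the delta-5 desaturase that makes arachidonic acid and eicosapentaenoic acid, Fads2 is the delta-6 desaturase at the first step of the same route, and Fads3 is a related enzyme that acts on sphingoid bases. Scd1 and Scd2 are stearoyl-CoA desaturases, which make monounsaturated fatty acids. In the GRCm38 annotation Fads3, Fads2 and Fads1 follow each other on chromosome 19 with no other protein-coding gene between them.

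The promoter windows below are shown because the regulators of the list act through short motifs near the start site. The RefSeq table, on build GRCm38.p6, gives 250 bases before to 50 after each start and held 39 windows for 29 of the 36 genes. Fads1, Scd1, Scd2, Stard4, Fdft1, Sqle and Fdps were not examined for motifs. Capitals mark matches, on either strand, to 4 motifs: the core of a sterol regulatory element (TCACNCCAC), the E-box (CACGTG), the CCAAT box (CCAAT) and the GC box (GGGCGG). No match of one of these motifs overlaps another in the windows shown. Hmgcs1 (chr13:119690101-119690400, plus strand) is printed because its window was the only member window with the sterol regulatory element core, and Fads3 (chr19:10041298-10041597, plus strand) and Fads2 (chr19:10101454-10101753, minus strand) as the neighbours of Fads1. All 3 are written 5′ to 3′ on the gene's strand.
Hmgcs1: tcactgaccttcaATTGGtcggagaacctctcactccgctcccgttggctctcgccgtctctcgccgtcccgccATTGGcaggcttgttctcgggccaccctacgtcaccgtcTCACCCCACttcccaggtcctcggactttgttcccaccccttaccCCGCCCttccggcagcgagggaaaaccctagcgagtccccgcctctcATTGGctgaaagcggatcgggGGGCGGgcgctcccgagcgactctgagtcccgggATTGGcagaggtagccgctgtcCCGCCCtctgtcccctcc
Fads3: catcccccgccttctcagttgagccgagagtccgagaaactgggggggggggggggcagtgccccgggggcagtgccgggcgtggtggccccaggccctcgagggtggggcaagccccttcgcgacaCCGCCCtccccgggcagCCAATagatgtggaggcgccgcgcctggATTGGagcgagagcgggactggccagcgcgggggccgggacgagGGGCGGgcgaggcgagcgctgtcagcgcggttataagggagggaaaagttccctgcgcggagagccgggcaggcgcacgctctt
Fads2: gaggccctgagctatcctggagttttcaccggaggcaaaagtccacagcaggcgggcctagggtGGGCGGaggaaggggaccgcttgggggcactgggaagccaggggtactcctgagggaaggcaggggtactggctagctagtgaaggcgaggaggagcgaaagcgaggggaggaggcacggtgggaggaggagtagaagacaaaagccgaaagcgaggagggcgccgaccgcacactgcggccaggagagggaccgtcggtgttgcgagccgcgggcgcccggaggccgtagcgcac
In Hmgcs1 the sterol regulatory element core reads TCACCCCAC and starts 137 bases before the start site, beside 4 CCAAT boxes and 3 GC boxes. The Fads3 window held 2 CCAAT boxes and 2 GC boxes, and the Fads2 window 1 GC box. Over the member windows, the sterol regulatory element core was in 1 of 39, against 1.24% of all 32851 windows of the table. The E-box was in 7 of 39 (17.9%, against 7.15% of all windows), in Dhcr7, Elovl5, Hsd17b7, Insig1, Sc5d and Scap. CCAAT boxes were in 25 (64.1%, against 37.4%) and GC boxes in 29 (74.4%, against 35.7%). A gene can have several windows, and a match is a string of letters, not a measured binding site.

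Fads1 fell to about 1 part in 3 of its control level and differed most between the groups among the 36 genes. It stood at 23.7, 26.7 and 19.3 CPM in controls 1 to 3 and at 7.91, 7.45 and 7.27 CPM in knockouts 1 to 3. The knockouts lay close together and every one of them was below every control. Control libraries averaged 23.2 CPM ± 3.70 (SD, n = 3) and knockout libraries 7.54 CPM ± 0.329, 32.5% as much, on 261 to 753 counts per library. The log2 fold change, -1.62 ± 0.15 (SE), had a 95% interval of -1.96 to -1.28. Fads1 was the only member called. Of all tested genes, 0.480% were called lower and 0.465% higher, and since the list was chosen on this comparison nothing is read from its count.

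The difference in Fads1 stayed under each way of counting and without any 1 library. These values reuse the reads on which the list was chosen, so they describe how steady the difference is and are no separate support. Reads of the forward orientation numbered 386, 338 and 262 in control and 140, 133 and 160 in knockout, and reads of the reverse orientation 367, 311 and 269 against 155, 128 and 111. No exon of another annotated gene overlapped it, and none of its 50-base exonic sequences occurred in another gene. Among the male libraries the mean of the knockouts was 0.318 of control 1. The call held in all 19 alternative fits, with log2 fold changes between -1.21 with unscaled library totals, where the median of all genes itself moved up by 0.41, and -1.74 without control 3.

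Its neighbours on chromosome 19 showed no such gap. Fads2 was at 9.73, 6.78 and 10.6 CPM in control against 11.4, 6.74 and 12.0 CPM in knockout, and the groups covered nearly the same range. The log2 fold change, 0.15 ± 0.25 (SE), had a 95% interval of -0.43 to 0.73. Fads3 was at 5.83, 4.89 and 5.38 CPM in control against 5.71, 3.68 and 4.37 CPM in knockout, with a log2 fold change of -0.23 ± 0.20. The replicate 2 libraries were the lowest of their group for both of these genes.

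Per kilobase of exon, Fads1 exceeded Fads2 in every control and was below it in every knockout. The ratio of Fads1 to Fads2 per kilobase was 1.67, 2.69 and 1.25 in control and 0.473, 0.757 and 0.416 in knockout. With lengths taken into account, Fads1 had the fifth highest level of the 36 genes in control, at 4.83 CPM per kilobase ± 0.770 (SD, n = 3), and ranked 16 in knockout, at 1.57 ± 0.0684.

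Scd2 was the most abundant desaturase and the other large difference. It stood at 86.9, 63.5 and 77.6 CPM in control against 37.9, 51.3 and 25.0 CPM in knockout. The groups did not overlap, but the knockouts spread over a range of more than 25 CPM. Means were 76.0 CPM ± 11.8 (SD, n = 3) for control and 38.1 CPM ± 13.2 for knockout, and the log2 fold change -1.0 with a 95% interval of -1.59 to -0.41. Scd2 was not called in the fit without a block. It was called with a replicate block, a term that compares libraries carrying the same replicate number, with a log2 fold change of -1.05. In the fit with the block 3.40% of all tested genes were called higher and 2.58% lower, among them Fads1 and Scd2 and no other member.

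Scd1 had a wide spread in both groups. It stood at 14.6, 8.54 and 6.65 CPM in control against 8.82, 10.6 and 4.29 CPM in knockout, with a log2 fold change of -0.33 ± 0.42 (SE). Control 1 was the highest of the 6 libraries and knockout 3 the lowest. Scd1 and Scd2 share 4.56% and 3.97% of their 50-base exonic sequences with other genes, mostly of their own family, so a part of their reads could not be placed. Scd2 exceeded Scd1 per kilobase by 5.31, 6.65 and 10.5 times in control and by 3.85, 4.31 and 5.22 times in knockout. Summed over the 5 desaturases, the level was 141, 110 and 120 CPM in control against 71.8, 79.8 and 52.9 CPM in knockout, a gap made by Fads1 and Scd2.

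**Figure D1:**
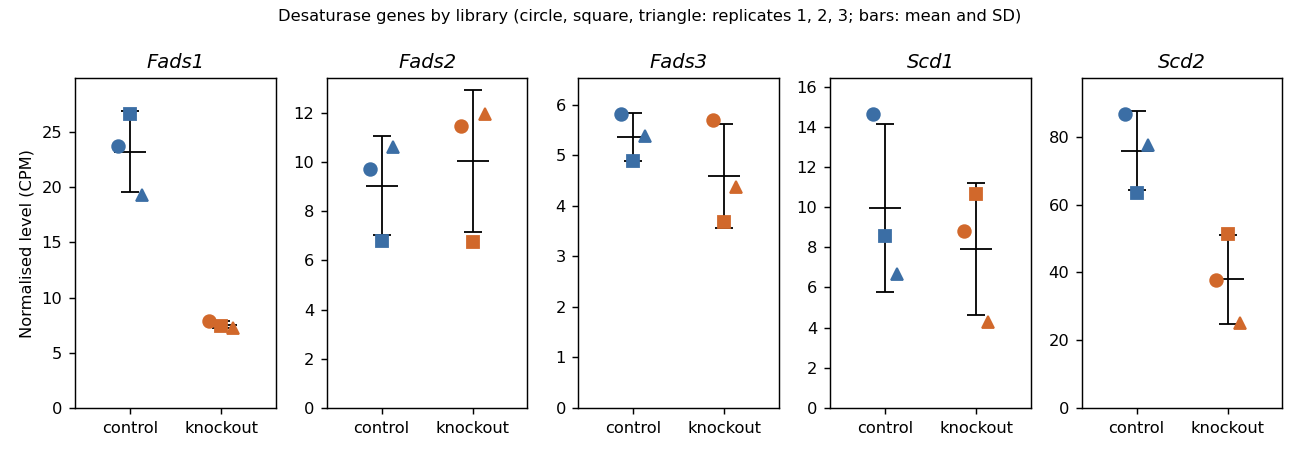
Normalised level (CPM, linear axes from 0, one scale per gene) of the 5 desaturase genes in each control (blue) and knockout (orange) library, with circle, square and triangle for replicates 1, 2 and 3 and bars for the mean and SD of 3 libraries. Knockout points of Fads1 lie between 7.27 and 7.91 CPM, far below the lowest control at 19.3 CPM, and those of Scd2 lie below the controls with a wide spread, while the groups overlap for Fads2, Fads3 and Scd1.

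Elongases lengthen fatty acyl chains by adding carbon units from malonyl-CoA. Elovl1, which makes very long saturated chains, was at 8.0, 8.87 and 9.71 CPM in control against 6.83, 6.14 and 6.46 CPM in knockout. All its knockouts lay below all controls and the log2 fold change was -0.45 ± 0.14 (SE), but it was not called. Elovl5, which lengthens the polyunsaturated products that lie between the steps of Fads2 and Fads1, was at 14.3, 11.9 and 9.34 CPM in control against 9.92, 7.99 and 8.90 CPM in knockout, with overlap at control 3 and a log2 fold change of -0.41 ± 0.18. Elovl7 was at 2.42 to 3.28 CPM in control and 2.11 to 3.78 CPM in knockout.

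Elovl6, which lengthens palmitate to stearate, was among the least abundant. Its level was 1.07, 0.370 and 0.364 CPM in control against 0.831, 0.856 and 1.07 CPM in knockout, on 9 to 40 counts per library. The male control was as high as the highest knockout and both female controls were low. Its log2 fold change of 0.60 ± 0.53 turned to -0.22 with sex as a covariate.

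Cytosolic acetyl-CoA is supplied by Acly, which splits citrate, and by Acss2, which activates acetate. Acly had among the most even levels of the list: 42.9, 42.3 and 44.9 CPM in control against 41.8, 45.2 and 41.7 CPM in knockout. Between the groups the log2 fold change was -0.02, with a 95% interval of -0.29 to 0.26. Acss2 was at 2.74, 2.96 and 3.05 CPM in control against 2.22, 2.03 and 2.07 CPM in knockout. Its groups did not overlap, and the log2 fold change of -0.47 ± 0.22 (SE) was not called.

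Fatty acid synthase, Fasn, which builds palmitate, showed no difference larger than its spread. It stood at 25.7, 23.6 and 23.7 CPM in control against 24.4, 20.7 and 27.8 CPM in knockout, with a 95% interval of -0.32 to 0.32 for the log2 fold change. Acaca, the acetyl-CoA carboxylase that makes malonyl-CoA, was at 7.24, 4.19 and 4.83 CPM in control against 5.28, 6.14 and 6.14 CPM in knockout. As much as 30.4% of its 50-base exonic sequences occur in another gene, so its level is uncertain. Me1, the malic enzyme that yields NADPH, ranged from 0.493 to 2.08 CPM in control and from 0.400 to 1.29 CPM in knockout, highest in replicate 1 of each group, and 22.9% of its sequences are shared.

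The mevalonate steps turn acetyl-CoA into the isoprenoid units of sterols. Hmgcs1, which makes HMG-CoA and whose promoter is printed above, was at 5.07, 5.34 and 4.33 CPM in control against 3.62, 3.60 and 4.08 CPM in knockout. Knockouts lay below controls with a narrow gap, and the log2 fold change of -0.38 ± 0.17 (SE) was not called. Mvk, mevalonate kinase, was at 1.64 to 2.67 CPM in control and 1.46 to 2.41 CPM in knockout. Pmvk, phosphomevalonate kinase, was at 0.982 to 1.23 and 0.751 to 1.64 CPM. Mvd, the decarboxylase after it, was at 1.92 to 2.44 and 2.28 to 3.00 CPM. These 3 enzymes overlapped between the groups.

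Idi1, the isomerase of isopentenyl diphosphate, stood at 1.92, 1.19 and 1.16 CPM in control against 1.07, 1.26 and 1.10 CPM in knockout, with only control 1 apart. Of its 50-base sequences, 17.7% are shared with other genes. Fdps, the farnesyl diphosphate synthase that joins the isoprenoid units, had 1 count in knockout 1, 2 counts in knockout 2 and none in the other libraries. Shared sequence made up 26.2% of its 50-base stretches, mostly with Gm43738, a gene model on the same strand whose exons overlap it. Reads that fall in such overlaps, or map to several places, are counted to no gene by the counting mode of this table layout. How far this sets the level of Fdps was not tested, and the near absence of counts is no measure of its expression.

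From squalene on, the sterol enzymes differed little between the groups. Fdft1, squalene synthase, was at 14.0, 22.5 and 16.4 CPM in control against 17.1, 14.6 and 16.4 CPM in knockout, and control 2 alone stood out. Exons of Ctsb on the opposite strand overlap 18.3% of the Fdft1 exonic bases, and without strand information reads there could not be told apart. Sqle, squalene epoxidase, was at 5.85 to 8.63 CPM in control and 7.25 to 8.90 CPM in knockout. Lss, which closes the sterol rings, was the only gene of the list whose knockouts all lay above all controls, at 5.17, 5.46 and 4.40 CPM against 5.82, 5.54 and 6.49 CPM. The gap between control 2 and knockout 2 was under 0.1 CPM, and the log2 fold change of 0.25 ± 0.16 (SE) was not called.

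Cyp51, the lanosterol demethylase, was at 4.44, 3.94 and 4.14 CPM in control against 2.44, 3.43 and 3.46 CPM in knockout. Its groups did not overlap, and the log2 fold change of -0.43 ± 0.21 (SE) was not called. Msmo1 and Nsdhl, which remove the methyl groups at carbon 4, had log2 fold changes of -0.02 ± 0.25 and -0.05 ± 0.41. Nsdhl was low in control 3 alone, at 0.80 CPM against 2.20 and 2.18 CPM in controls 1 and 2. Hsd17b7, the ketoreductase of the same complex, had 11 to 43 counts per library and a log2 fold change of 0.45 ± 0.49.

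The last enzymes of the route were close to even. Ebp, the sterol isomerase, was at 4.69 to 5.26 CPM in control and 4.0 to 4.75 CPM in knockout. Sc5d, the lathosterol desaturase, was at 10.2, 12.7 and 11.4 CPM in control against 9.25, 13.2 and 11.8 CPM in knockout, with replicate 2 highest in both groups. Dhcr7, which completes cholesterol from its dehydro precursor, was at 5.17, 6.57 and 4.65 CPM and at 4.34, 3.48 and 4.96 CPM, with a log2 fold change of -0.36 ± 0.20 (SE). The 10 genes from Fdft1 to Dhcr7 summed to 57.0, 71.2 and 55.2 CPM in control against 58.4, 56.5 and 61.4 CPM in knockout.

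The regulators of the pathway were among its more abundant transcripts. Srebf1, whose protein acts chiefly on fatty acid genes, was at 37.8, 40.4 and 35.9 CPM in control against 39.9, 46.5 and 25.9 CPM in knockout. Knockout 3 was the lowest library, knockout 2 the highest, and the log2 fold change was -0.02 ± 0.21 (SE). Srebf2, whose protein acts chiefly on sterol genes, was at 23.5, 16.8 and 19.1 CPM in control against 18.7, 16.0 and 14.8 CPM in knockout. Its log2 fold change of -0.27 ± 0.16 was not called and the groups overlapped. Its 95% interval ran from -0.63 to 0.10.

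Scap, the escort of the SREBPs, was at 18.8, 22.9 and 26.6 CPM in control against 21.9, 20.3 and 22.3 CPM in knockout. Insig1, the sterol-responsive retention protein, was at 39.6, 47.5 and 60.5 CPM and at 46.8, 54.0 and 41.7 CPM. It had the highest level of the list per kilobase in both groups, 15.9 CPM per kilobase ± 3.41 (SD, n = 3) in control. Insig2 was at 8.60 to 12.0 CPM in control and 8.93 to 13.4 CPM in knockout. The log2 fold changes of Scap, Insig1 and Insig2 were -0.08, -0.05 and 0.10, each with a standard error of at least 0.15.

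Stard4 carries cholesterol between membranes. It was at 2.20, 0.288 and 0.80 CPM in control against 2.06, 0.828 and 1.72 CPM in knockout, on 7 to 77 counts. It was high where the stromal and endothelial markers summed highest, at 188, 46.3 and 66.6 CPM in control against 224, 61.1 and 135 CPM in knockout. The part of those cells in its level was not tested.

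**Figure D2:**
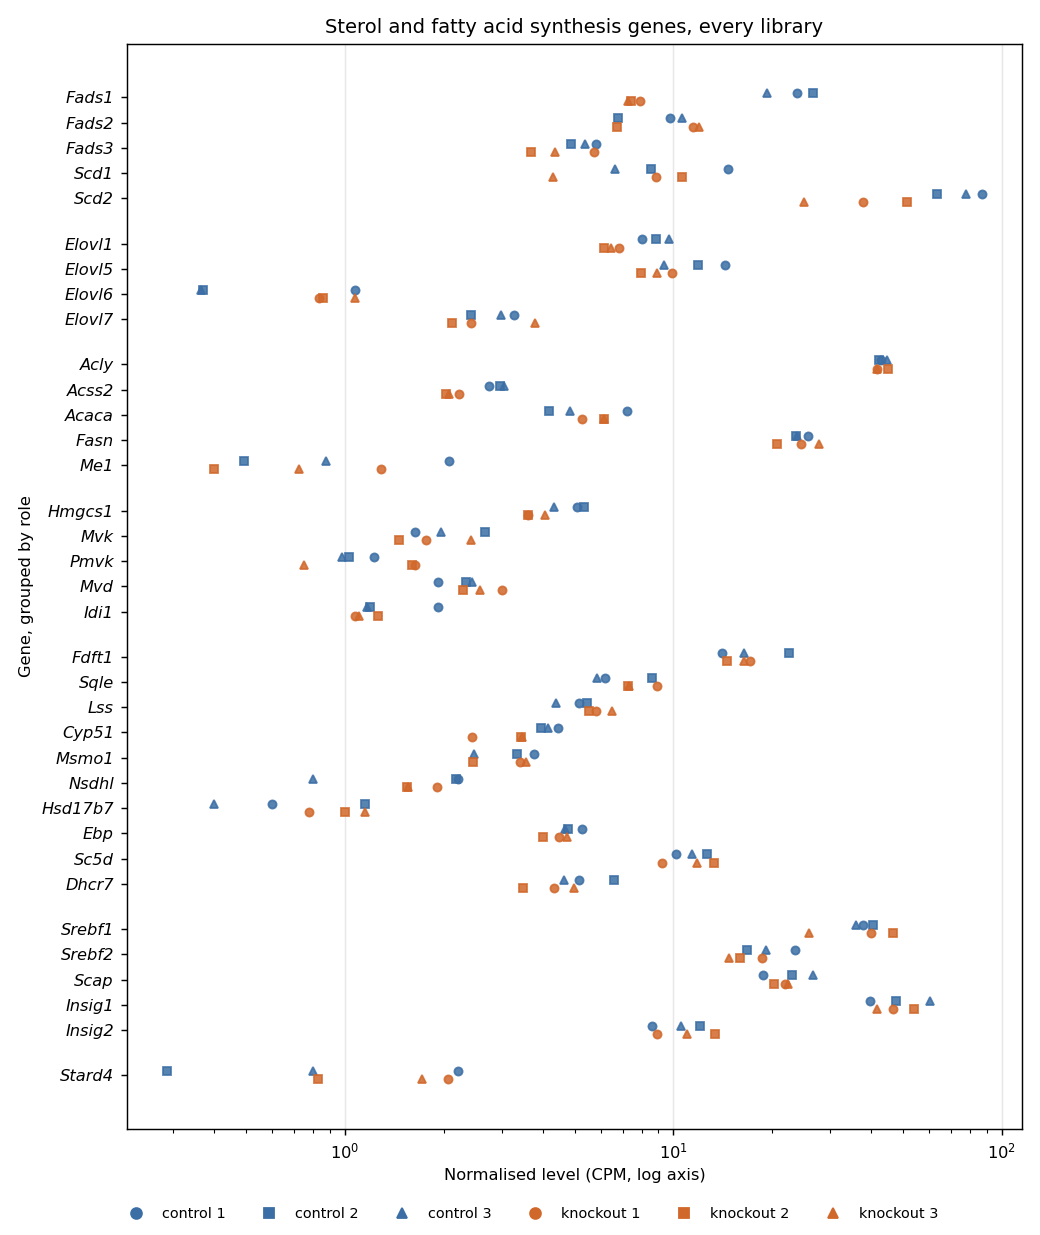
Normalised level (CPM, log axis) of the 35 tested genes in each of the 6 libraries, ordered by role from desaturases at the top to sterol transport at the bottom, with blue for control, orange for knockout and circle, square and triangle for replicates 1, 2 and 3. Colours separate for Fads1 and Scd2 and mix in most other rows, and the points spread widely for the lowest genes such as Stard4, Me1 and Elovl6.

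Over the whole list, 24 of 35 tested genes had a negative log2 fold change and 11 a positive one. Of all 13115 tested genes, 6249 had a negative one and 6866 a positive one. The median of the members was -0.06, beside 0.02 for all tested genes. Of the members, 31 (88.6%) differed by less than 0.5 on the log2 scale, as did 75.7% of all tested genes. Knockouts lay entirely below controls for 6 members, Fads1, Scd2, Elovl1, Acss2, Hmgcs1 and Cyp51, and entirely above for 1, Lss. Such gaps were found in 10.9% of all tested genes for the lower and 12.0% for the higher direction. No member was called higher by edgeR's quasi-likelihood test, by DESeq2 or by limma-voom, and none reached an unadjusted p under 0.05 in that direction. In the lower direction 5 members did. Over all tested genes these shares were 8.45% higher and 8.27% lower at an unadjusted p under 0.05, and 2.02% higher and 2.60% lower among the 12838 genes to which DESeq2 gave an adjusted p.

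The median of the members was -0.25 when sex was a covariate, beside 0.001 for all tested genes. Among the male libraries alone, where a single control is compared with 3 knockouts, it was -0.24, beside 0.013 for all tested genes. Control 1, the male control, had the highest control level of, among others, Scd1, Elovl5, Elovl6, Acaca, Me1, Idi1, Srebf2 and Stard4. It was also the control with the highest leukocyte, stromal and endothelial marker sums, and sex and these markers cannot be told apart in 1 library. With unscaled library totals the median of the members was 0.34, so most of them were positive, with the median of all genes at 0.43.

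The spread between replicates was close to that of other genes. The median coefficient of variation of the members was 17.1% in control and 14.4% in knockout, beside 19.2% and 15.5% for all tested genes. In control it was above 40% for 6 members: Scd1, Elovl6, Me1, Nsdhl, Hsd17b7 and Stard4. Apart from Scd1, these 6 had fewer than 100 counts in at least 1 library. At least 100 counts in every library backed 22 of the members.

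**Figure D3:**
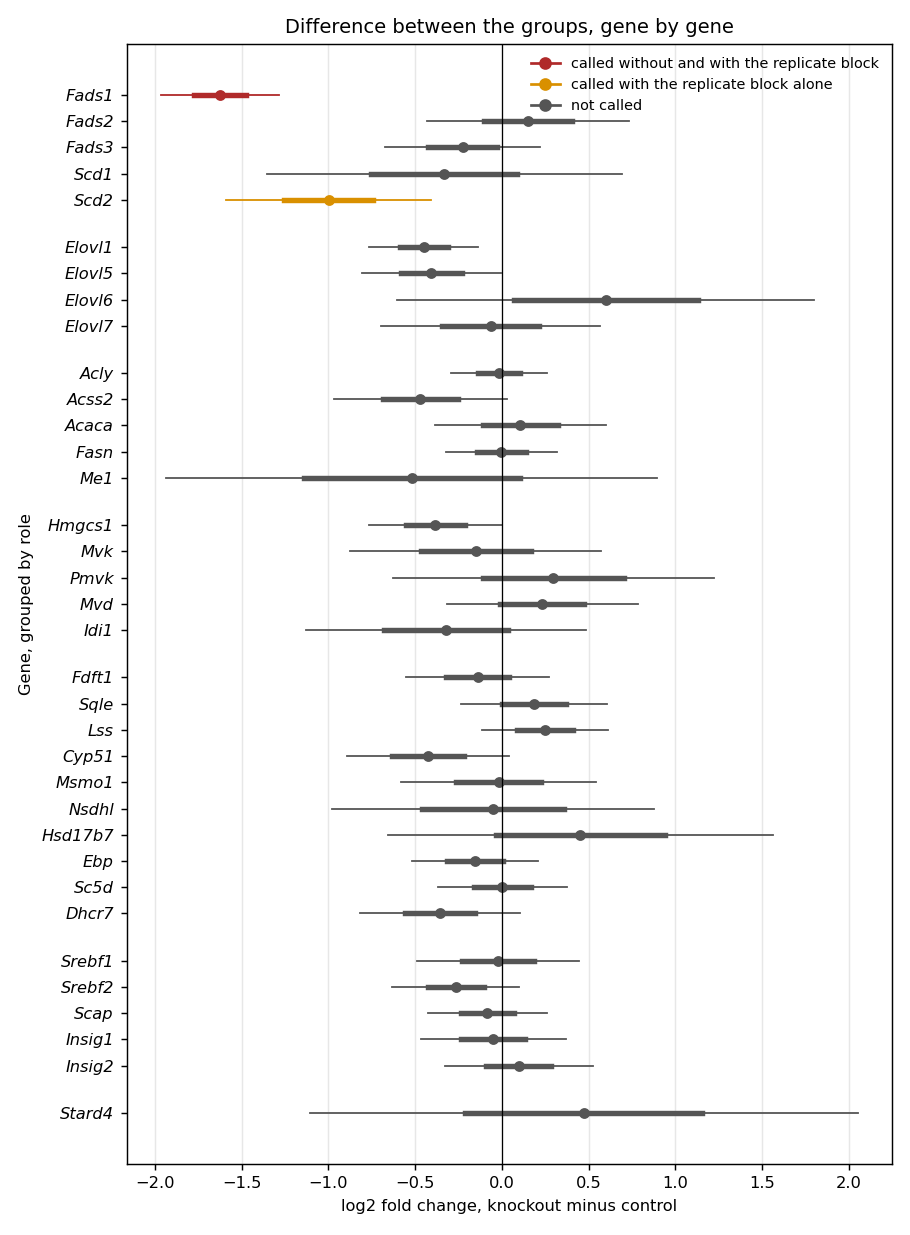
Log2 fold change, knockout minus control, of the 35 tested genes, ordered as in the plot of levels by library, with a point for the estimate, a thick bar for its standard error and a thin bar for its 95% interval. Fads1 at -1.62 (red) was called without and with the replicate block, Scd2 at -1.0 (orange) with the block alone, and no other gene was called in either fit.

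Adipocytes are rich in several of these enzymes, and their markers were therefore examined. Adipoq, Lep, Retn and Adig had no count in any library, and 12 of 19 adipocyte markers were under 1 CPM everywhere. The sum of the 19 was 99.7 to 146 CPM in control and 70.3 to 74.7 CPM in knockout, led by Lpl, the lipoprotein lipase, at 69.3, 76.9 and 119 CPM against 34.5, 48.3 and 47.1 CPM. Lpl was called lower with the replicate block (edgeR's quasi-likelihood test, adjusted p = 0.0047) and not without it. Pnpla2, the triglyceride lipase, was at 10.8 to 13.4 CPM in control and 10.4 to 11.8 CPM in knockout. Fabp4, a fatty acid carrier of adipocytes, endothelium and macrophages, was at 8.85, 3.37 and 3.49 CPM against 17.2, 4.57 and 5.66 CPM and was called higher with the block alone.

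Markers of islet and duct cells also differed between libraries. Islet markers summed to 508, 498 and 392 CPM in control against 942, 688 and 265 CPM in knockout, led by the insulin genes Ins2 and Ins1 and by glucagon, Gcg. Of the 15 islet markers 12 had a positive log2 fold change and 3 a negative one, with a median of 0.54. Against that direction Ttr, transthyretin, fell from 31 CPM ± 4.52 (SD, n = 3) to 14.7 CPM ± 0.206 (adjusted p = 0.0148, edgeR's quasi-likelihood test). Ductal markers summed to 237 to 273 CPM in control and 226 to 338 CPM in knockout, with Spp1, Muc1 and Epcam the most abundant. Knockout 3, with the lowest islet sum, also had the lowest Scd1, Scd2 and Srebf1, and the part of islet cells in those values was not tested.

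Genes of the same pathways outside the list were taken from 6 further lists. They held 147 genes, of which 125 were tested, and their median log2 fold change was -0.06. Npc2, which binds cholesterol in the lysosome and passes it to the membrane protein Npc1, was the only gene called, at 15.6, 14.3 and 14.4 CPM in control against 7.48, 5.54 and 5.34 CPM in knockout. Every knockout was below every control. Npc2 fell by 1.27 on the log2 scale (edgeR's quasi-likelihood test, Benjamini-Hochberg adjusted p = 0.0116). It was not called without control 2, without knockout 3, with sex as a covariate or among males alone.

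In the list of other sterol synthesis and uptake genes, 19 of 22 were tested, with Npc2 called lower and no gene called higher (1 had an unadjusted p under 0.05, none by DESeq2). Their median log2 fold change was 0.01, and with the block 1 gene was called in each direction.

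Of 25 other fatty acid synthesis and elongation genes 19 were tested. None was called by edgeR's quasi-likelihood test without the block, 1 was called lower by DESeq2, and an unadjusted p under 0.05 was reached by 2 higher and 4 lower. Idh1, the cytosolic isocitrate dehydrogenase that yields NADPH, was called lower with the block: 14.5, 17.6 and 12.5 CPM in control against 9.30, 10.6 and 9.39 CPM in knockout. Their median log2 fold change was -0.18. It was also -0.18 for the 19 tested genes of SREBP and Insig trafficking and turnover. In that list none was called without the block, 1 was called lower by DESeq2, and 1 was higher and 4 lower at an unadjusted p under 0.05. Lpcat3, which places polyunsaturated chains into phospholipids and belongs also to the next list, was lower with the block, at 9.86, 11.7 and 13.7 CPM against 7.32, 7.14 and 7.64 CPM. The adjusted p of edgeR's quasi-likelihood test for Lpcat3 was 0.0232 with the block and 0.0756 without.

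Liver X receptors are sterol sensors, and the next list holds their targets and genes of sterol efflux. Among 19 tested genes of that list, none was called without the block, 2 were called lower by DESeq2, and an unadjusted p under 0.05 was reached by 3 higher and 4 lower. With the block 3 were called higher and 2 lower. Of all tested genes, the block called 3.40% higher and 2.58% lower. Without it, 8.45% of all tested genes were higher and 8.27% lower at an unadjusted p under 0.05. Nr1h3, the receptor LXR alpha itself, was at 4.63, 5.38 and 5.16 CPM in control against 2.28, 3.23 and 1.85 CPM in knockout, a log2 fold change of -1.04 ± 0.24 (SE). Abcg1, a sterol exporter, was at 5.54, 4.27 and 4.58 CPM and at 7.56, 6.68 and 9.31 CPM. The lipoprotein Apoe was at 54.8, 27.4 and 42.8 CPM and at 93.5, 40.7 and 113 CPM, higher within each replicate number but overlapping between the groups. Mlxipl, a carbohydrate-responsive transcription factor of fatty acid genes, had a log2 fold change of 0.78 ± 0.28. Abca1, the exporter that loads cholesterol onto apolipoprotein A-I, was at 16.4, 6.98 and 15.6 CPM and at 11, 14.9 and 17.8 CPM, with no call. In the blocked fit the receptor and Lpcat3 were called lower, and Abcg1, Apoe and Mlxipl higher, so the listed targets went both ways. Apoe and the macrophage genes C1qa, C1qb and C1qc were all called higher with the block, each highest in knockout 3. Of the 17 tested leukocyte markers, 8 had a positive and 9 a negative log2 fold change, with a median of -0.37. The block called 4 of them higher and 1 lower. The part of macrophages in Apoe was not tested.

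Of the 33 genes that activate fatty acids or build triglycerides and phospholipids, 27 were tested. None was called by edgeR's quasi-likelihood test without the block, DESeq2 called 1 higher and 1 lower, and 2 were higher and 1 lower at an unadjusted p under 0.05. Chka, the choline kinase at the start of phosphatidylcholine synthesis, was at 32.5, 35.9 and 34.8 CPM in control against 52.2, 53.9 and 56.6 CPM in knockout. Its groups were far apart for their spread, and the adjusted p of edgeR's quasi-likelihood test was 0.0524 without the block and 0.0156 with it. Dgat2, which closes triglyceride synthesis, was at 1.32, 6.04 and 5.53 CPM and at 1.02, 1.63 and 0.751 CPM. Its male control lay among the knockouts, and its log2 fold change of -1.92 became -0.23 with sex as a covariate, so that sex and genotype cannot be told apart for this gene.

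Fatty acid oxidation was represented by 23 tested genes of 27. None was called without the block, also by DESeq2, and 1 was higher and 4 lower at an unadjusted p under 0.05. Txnip, a thioredoxin-binding protein induced by glucose, was at 130, 95.7 and 247 CPM in control against 277, 148 and 462 CPM in knockout, and was called higher with the block alone. In both groups replicate 3 was highest and replicate 2 lowest. Pdk4, which spares glucose in fasting, was at 0.370 to 1.42 CPM in control and 0.514 to 1.74 CPM in knockout and was not called. Over the 6 lists the block raised the number of called genes from 1 to 11 of 125 tested, 6 higher and 5 lower. Over all 13115 tested genes it raised the number from 124 to 785, with 3.40% called higher and 2.58% lower.

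**Figure D4:**
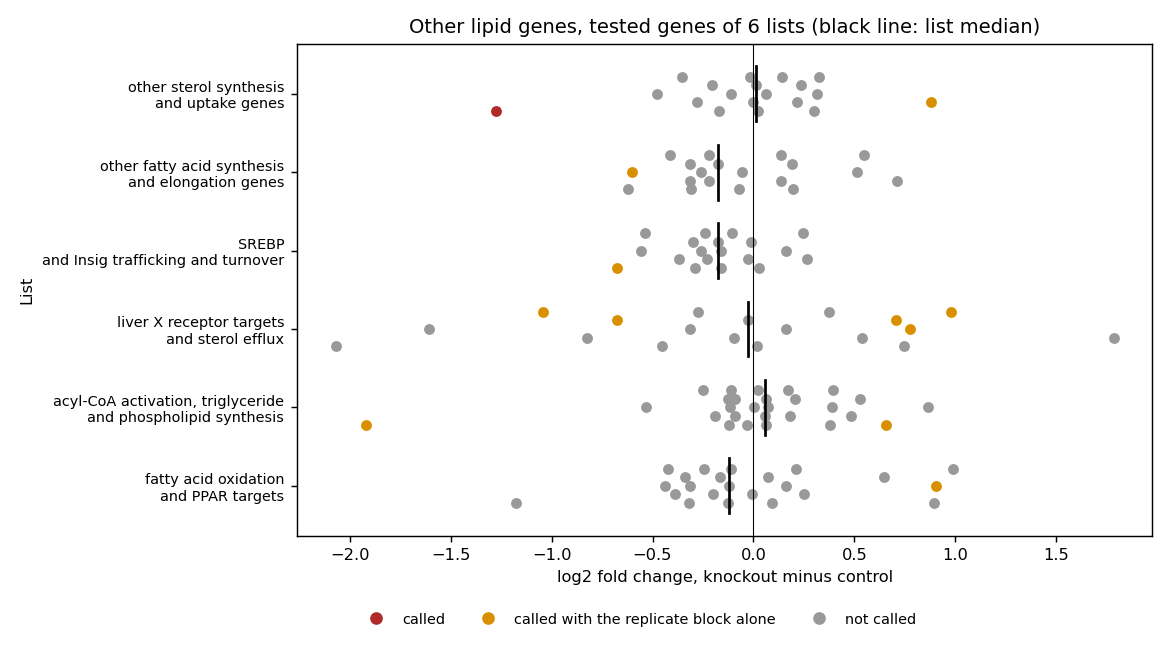
Log2 fold change, knockout minus control, of the tested genes in the 6 further lipid lists, 1 point per gene and a black line at each list's median. Npc2 at -1.27 is the only gene called without the block (red), 10 more were called with it (orange), and the list medians lie between -0.18 and 0.06.

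The calls of the list itself changed little across fits. Fads1 was called in each, and Scd2 was called with the replicate block, with no filter on low counts and with DESeq2, but not in the other 16 alternative fits. Its log2 fold change lay between -1.28 without knockout 2 and -0.61 with unscaled library totals. Without knockout 3, which had the lowest Scd2, it was -0.77.

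**Figure D5:**
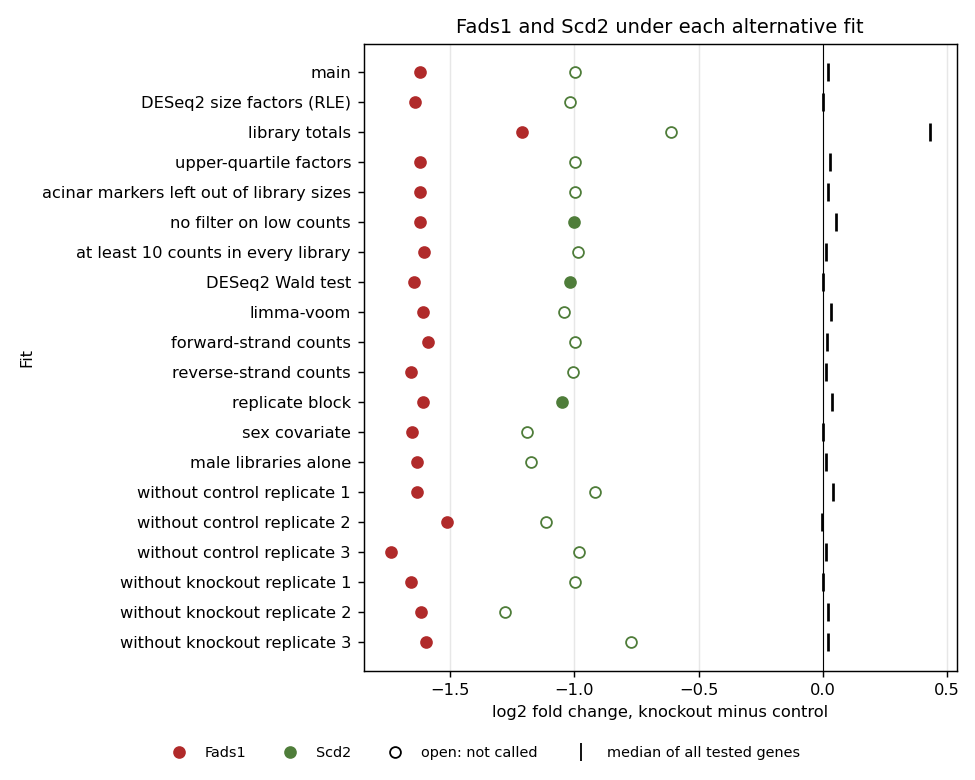
Log2 fold change, knockout minus control, of Fads1 (red) and Scd2 (green) in the fit reported and 19 alternatives, filled where the gene was called and open where not, with a black tick at the median of all tested genes. Fads1 lies between -1.74 and -1.21 and is filled in every row, and Scd2 is filled in 3 alternatives.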

How the data were processed

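Gene expression was measured by poly-A RNA sequencing in 6 libraries, 3 control and 3 knockout, and the samples were grouped by the genotype in the labels. The deposited tables hold raw counts per gene, unstranded and for each strand, which the authors made from reads aligned with STAR 2.7.10a to GRCm39 (mm39), per the submitters' processing notes. The annotation behind the counts, and whether 1 count is a read or a read pair, are not given in the sources used here. The layout, with 4 rows outside genes, is that of STAR's gene counts, in which reads mapping to several places are counted to no gene. Those rows held 43.5% to 45.7% of reads in control libraries and 36.9% to 41.1% in knockout libraries and were kept out of library sizes and tests. Symbols were found for 52081 of 55414 identifiers (94.0%) and covered at least 99.8% of counts. Exonic lengths, overlaps and shared 50-base sequences came from the GENCODE M21 annotation of GRCm38, which is not the build of the counts, so no gene coordinates are printed from it. Promoter windows came from the RefSeq table.

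The unstranded counts were tested with edgeR 4.0.16 in R 4.3.3 (filterByExpr, TMM factors, robust quasi-likelihood fit), with Benjamini-Hochberg adjustment over all 13115 tested genes and calls at an adjusted p under 0.05. The standard error is the log2 fold change divided by the root of its F statistic, and intervals are at 95%. The member genes were chosen by the study's control and knockout counts, and members and lists were chosen with earlier results of these data known, so no list was tested. Named genes were all members, Pdk4, Abca1, the related or marker genes called without or with the block, and the 3 most abundant markers of each list. Some genes that the rule takes are not reported here. Of the gene lists, 1 symbol, Spring1, had no match, and Bmal1 was matched as Arntl.

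The labels number the replicates 1 to 3 in both groups without saying what a number marks. Deviations of log2 CPM (prior count 2) from the group means correlated at 0.63, 0.455 and 0.285 in the same-numbered pairs and at -0.496 to 0.21 in the others. All 3 same-numbered correlations exceed 0.1, so replicate numbers are treated as pairing the libraries, and the fit with a replicate block is given where it changed a call. Control 3 and knockout 2 also exceed this cut-off, at 0.21, so the cut-off alone does not establish the pairing by number. This pairing was inferred from the same counts that the block then tests, and the labels do not state it. In replicates 2 and 3 it sets a female control beside a male knockout. The closest pair of libraries differed by a chi-square of 26.3 per degree of freedom, so each was counted as a separate sample. The alternatives were other scalings, filters, strands, DESeq2 1.42.0, voom of limma 3.58.1, the block, sex, and leaving out each library. Reads carry no molecular identifiers, so counts understate the error between molecules.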

Additional observations from a re-analysis of the deposited data

How the results depend on the processing

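Of 663 log2 fold changes of members over 19 alternatives, 608 stayed within 1 SD of the replicates and 55 moved further. Fads1, the only called member, kept its sign in each. Members that were not called changed sign in some fits, in both directions. With the sex covariate, for instance, Elovl6 went from 0.60 to -0.22 and Insig1 from -0.05 to 0.26. Over all tested genes 124 were called, 61 higher and 63 lower. The count was 1519 with unscaled library totals (94.9% of them higher, against 49.2%), 850 with no filter on low counts, 210 where each library had to hold 10 counts, 593 with DESeq2, 785 with the replicate block, 21 with sex as a covariate and 18 among males alone. Leaving out 1 library gave 20 (without control 2) to 461 (without control 1), and 54, 27 and 24 without control 3, knockout 1 and knockout 3. The cause was not tested. Of the members, 1 was called, 2 with no filter, with DESeq2 or with the replicate block, and 1 in each fit without 1 library. Their median of -0.06 became 0.34 with library totals, -0.25 with the sex covariate and -0.24 among males, and -0.17 to -0.05 without 1 library. Of the related genes 1 was called, against 14 with library totals, 2 with upper-quartile factors, 2 with at least 10 counts, 2 on forward-strand counts, 13 with no filter, 6 with DESeq2 and 11 with the replicate block. None was called with the sex covariate (13 at an unadjusted p under 0.05) or among males (10), and 0 to 4 without 1 library. Pairing by replicate number changed no call among the members other than that of Scd2. Sex was read from the data, and only 1 control was male. The 6 libraries limit what could be called. The intervals of Elovl6, Me1, Hsd17b7 and Stard4, each with under 15 counts in at least 1 library, were wider than 2 on the log2 scale. So was that of Scd1, -1.36 to 0.69, which had at least 160 counts in every library.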

Other observations

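Clock genes drive daily rhythms, in lipid metabolism among others. Of 14 tested, 13 had a positive log2 fold change, with a median of 0.61. Of all 13115 tested genes, 6866 had a positive one, with a median of 0.02. Per2, a repressor of the clock, rose from 1.48, 2.01 and 1.78 CPM in control to 4.32, 6.42 and 3.81 CPM in knockout (edgeR's quasi-likelihood test, Benjamini-Hochberg adjusted p = 0.0432). With the replicate block 5 clock genes were called higher, Per2 with Arntl, Per3, Cry1 and Cry2, and none lower. Over all tested genes the block called 3.40% higher and 2.58% lower. Arntl, the activator of the loop, was at 10.6, 12.8 and 12.0 CPM in control against 16.8, 18.9 and 23.1 CPM in knockout, and Per3 at 1.39, 1.23 and 1.31 CPM against 3.30, 3.37 and 2.68 CPM. Clock, the partner of Arntl and the most abundant gene of the list, was at 21.0, 23.3 and 33.3 CPM and at 19.5, 27.3 and 23.9 CPM, and Tef, an output factor, had a log2 fold change of 0.41 ± 0.12 (SE). The hour at which the cells were taken is not in the labels, so a difference in hour and one in genotype cannot be told apart.

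Among acinar markers, Ctrb1, Pnlip and Cela2a were the most abundant, and none of the 20 was called by edgeR's quasi-likelihood test without the block, while DESeq2 called 1 higher and 6 lower, and 1 higher and 10 lower had an unadjusted p under 0.05. Under the block, Cela2a, an elastase, Cpb1, a carboxypeptidase, and Ptf1a, the transcription factor of acinar identity, were lower, and Rbpjl, its partner, was higher, at 183, 280 and 180 CPM in control against 486, 658 and 370 CPM in knockout. Among ductal markers Krt7, Spp1, Ambp, Epcam and Pkhd1 were higher and Krt19, Krt23 and Muc1 lower with the block, none was called without it, DESeq2 called 2 higher and 2 lower, and 7 higher and 4 lower had an unadjusted p under 0.05. The islet list gave Pcsk2 higher and Ttr lower. In the leukocyte list, whose most abundant genes were Cd74, Lyz2 and H2-Aa, the macrophage genes Adgre1, C1qa, C1qb and C1qc were higher with the block and 1 other gene was lower. Of the 17 tested leukocyte markers 9 had a negative log2 fold change, and the median was -0.37. The stromal and endothelial list, led by Dcn, Plvap and Pecam1, gave no call with or without it, none by DESeq2 and none at an unadjusted p under 0.05.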
